A study of Homo sapiens with 12 samples.

Results

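The genes described here are 51 genes of the G2 phase of the cell cycle and of mitosis, chosen by symbol from what their proteins are known to do. The choice was made with earlier results of these data known. All 51 were found, with 1 row each, among the 16271 genes of the deposited count table, and all 51 were among the 14676 genes that passed the filter on low counts and were tested. No member had fewer than 131 counts in any library. The libraries were made from RNA of HaCaT cells, an immortalised human keratinocyte line, cultured in DMEM with fetal bovine serum. They came from wild type cells and from cells in which the vitamin D receptor gene VDR is knocked out (VDR KO), each without treatment and after 8 h of 1,25(OH)2D3. This is the hormonal form of vitamin D and the ligand that activates the receptor. Each of these 4 groups held 3 libraries. The sources used here do not state the dose of the hormone, its vehicle, how the knockout was made or whether the knockout cells are 1 clone or several. A difference between the genotypes therefore cannot be told apart from a difference between the particular cell populations that were compared.

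Cells enter mitosis when the kinase CDK1, bound to cyclin A or cyclin B, is freed of inhibitory phosphate groups by the CDC25 phosphatases. The spindle assembly checkpoint then holds the cells until every kinetochore is attached to spindle microtubules, after which the anaphase-promoting complex with its activator CDC20 has cyclin B and securin degraded. Transcripts of these genes are made mainly in G2 and mitosis and are held down in quiescent and differentiating cells. Their level in a culture therefore depends both on how many cells are in G2 or mitosis and on how much RNA each such cell holds, and in libraries from whole cultures fewer cells and less RNA per cell cannot be told apart.

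Promoters of such genes are known for a short element, the cell cycle genes homology region (CHR, letters TTTGAA or TTCGAA), bound by the DREAM and MuvB complexes, and for CCAAT boxes, bound by the factor NF-Y. RefSeq promoter windows on GRCh38.p14, which run from 250 bases before to 50 after a start site, were matched by symbol for 44 of the 51 members and gave 57 windows. Both motifs were searched on both strands, and a CHR and a CCAAT match may overlap, as in the MKI67 window. CHR letters stood in 66.7% of the members' windows and in 16.4% of all 35116 windows of the table. CCAAT stood in 66.7% of the members' windows and in 34.6% of all windows. Both stood in 50.9% of the members' windows and in 6.38% of all windows, which covers 27 members. The 150 bases before the start site are printed for 5 members chosen for where the stretch lies, with at most 26 annotated exon bases in it, and for what the gene did: NEK2, ESPL1 and KIF11 were called higher in the knockout under both treatments, CDC20 only without the hormone and MKI67 under neither. Capitals mark the motif letters, in either orientation.
NEK2 (chr1:211675622-211675771, minus strand): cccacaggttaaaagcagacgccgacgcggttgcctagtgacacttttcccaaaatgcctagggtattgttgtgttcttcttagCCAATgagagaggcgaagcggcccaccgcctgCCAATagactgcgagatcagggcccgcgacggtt
ESPL1 (chr12:53268149-53268298, plus strand): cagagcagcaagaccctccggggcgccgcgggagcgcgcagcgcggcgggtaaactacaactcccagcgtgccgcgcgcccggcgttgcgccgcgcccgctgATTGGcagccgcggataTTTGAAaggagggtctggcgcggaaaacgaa
KIF11 (chr10:92592980-92593129, plus strand): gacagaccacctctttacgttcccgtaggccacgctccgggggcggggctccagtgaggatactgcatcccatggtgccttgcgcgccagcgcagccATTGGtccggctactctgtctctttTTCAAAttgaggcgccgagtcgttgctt
CDC20 (chr1:43358831-43358980, plus strand): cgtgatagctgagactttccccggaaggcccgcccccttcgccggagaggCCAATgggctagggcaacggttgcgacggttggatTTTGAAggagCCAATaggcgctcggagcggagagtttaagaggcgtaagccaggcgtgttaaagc
MKI67 (chr10:128126424-128126573, minus strand): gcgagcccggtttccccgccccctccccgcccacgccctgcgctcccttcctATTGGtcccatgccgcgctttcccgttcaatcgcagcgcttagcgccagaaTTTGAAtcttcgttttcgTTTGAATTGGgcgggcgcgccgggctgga
The CHR letters begin 31 bases before the start site in ESPL1, 28 in KIF11 and 65 in CDC20, and the MKI67 window holds them at 47 and 29 bases. The NEK2 window holds no CHR letters and has CCAAT at 66 and 34 bases. A match is a description of the letters and not a measured binding site, and these libraries hold no measurement of binding.

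The library totals ran from 11485031 to 15992792 counts, and levels are given as CPM, the share of a library's counts times 1000000 after TMM scaling. CYP24A1, the hormone-degrading enzyme and a classic target of the receptor, was 34.9-fold higher after the hormone in wild type cells (adjusted p = 7.34e-11) and was at a log2 fold change of -0.47 in VDR KO cells (adjusted p = 0.106). VDR RNA itself was counted in every library, between 67.4 and 107.3 CPM, and against wild type it was lower in untreated VDR KO cells (-0.41, adjusted p = 5.03e-05) and higher in treated ones (0.22, adjusted p = 0.00796). In wild type cells it fell with the hormone (-0.54, adjusted p = 7.74e-05). All 17 keratinocyte markers examined were counted, with a summed level of 5595 to 6955 CPM in the wild type libraries and 2270 to 2820 CPM in the VDR KO libraries. Of 19 markers of other cell types, 5 were counted, and their sum was at most 35.6 CPM in any library. Replicate 3 of the untreated wild type group stood apart. It was the highest of its group for 36 of the 51 members, against 41.8% of all genes, with a median gap of 0.22 on the log2 scale to the other libraries of the group. Fold changes also moved with the GC content of the transcripts. Across the 14135 genes with a value, Spearman's rho between log2 fold change and GC was 0.30 for the hormone in wild type cells, -0.32 for the hormone in VDR KO cells, and -0.40 and -0.50 for the knockout without and with the hormone. Its part in the results was not tested. Values after a GC correction, an alternative chosen after seeing the data, are given where they change a member's call, with counts and examples for other values. The gene models of 20 members overlap another counted gene, among them CCNA2, CDC25C, FOXM1, MAD2L1, NUF2, KIF15, KIF20A, NCAPD3 and SMC4, and the use of strand in the counting is not given, so these counts may hold reads of the neighbour.

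**Figure D1:**
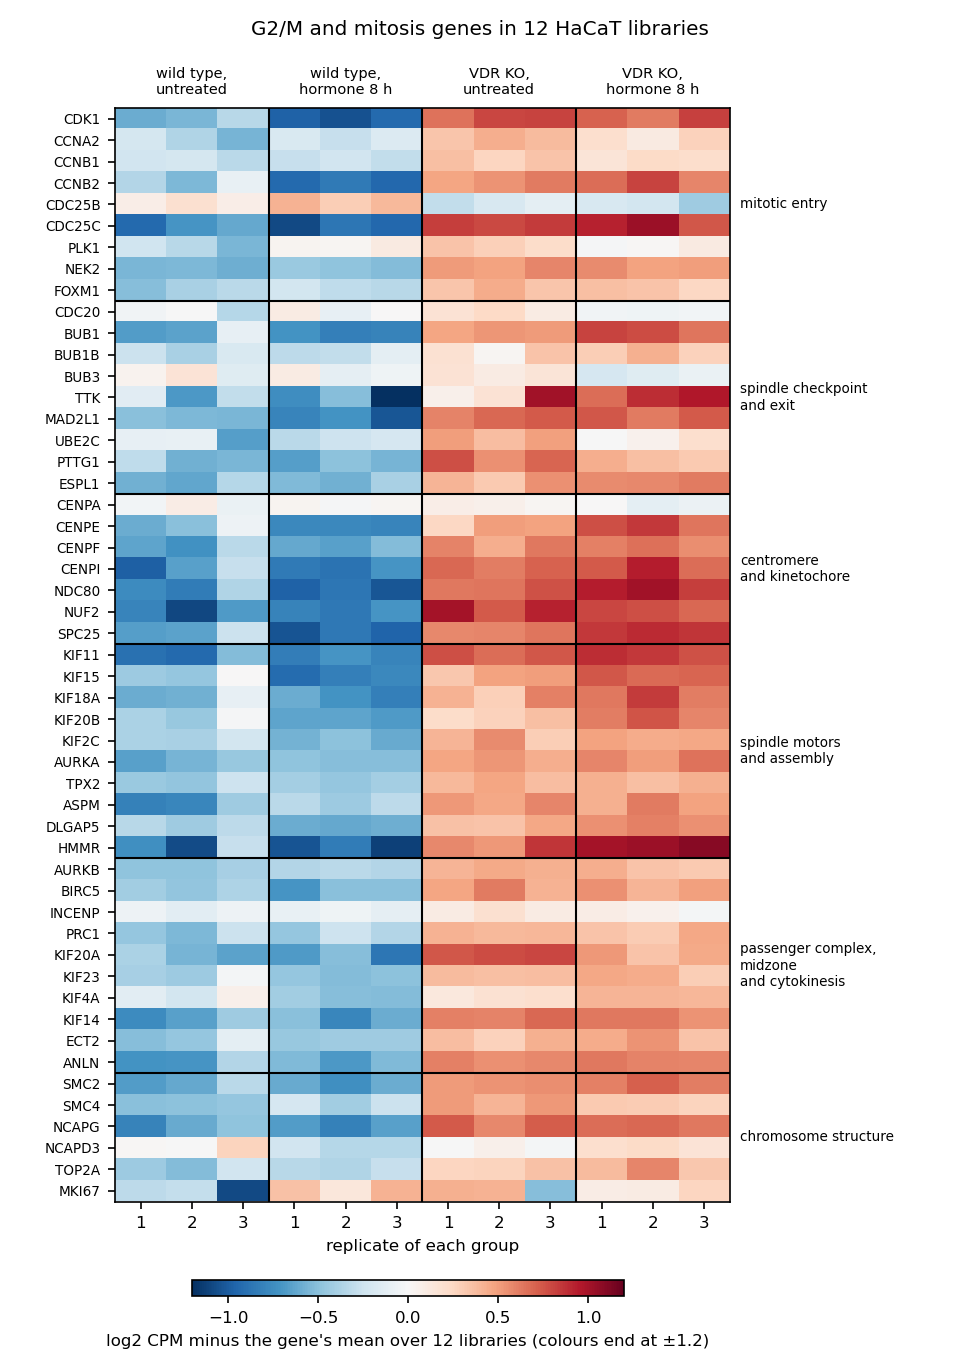
Log2 CPM of the 51 members (rows, by role) in the 12 libraries (columns, 3 replicates per group), minus each gene's mean over the libraries, with red for higher and blue for lower. Nearly all rows are blue in wild type and red in VDR KO libraries, with BUB3, CENPA, CDC25B, NCAPD3 and MKI67 among the exceptions, and replicate 3 of the untreated wild type group is paler than the other libraries of its group in many rows.

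The largest difference in these genes was between the genotypes. In untreated cells 46 of the 51 members were higher in VDR KO than in wild type cells and 1, CDC25B, was lower. Of all genes tested 35.5% were called higher and 34.2% lower. The members' median log2 fold change was 0.84, with a range of -0.32 to 1.73, and that of all genes was 0.01. In hormone-treated cells 44 members were higher in VDR KO and 1, again CDC25B, was lower, where 38.4% of all genes were called higher and 37.4% lower. Their median was 1.05, with a range of -0.65 to 2.04, beside 0.02 for all genes. The 2 comparisons share no library, and 43 members were higher in both. The summed level of the members was 4684 to 5294 CPM in the untreated and 4666 to 4802 CPM in the treated wild type libraries. It was 8306 to 8534 CPM in the untreated and 8573 to 8862 CPM in the treated VDR KO libraries, so the genotypes did not overlap. Of the keratinocyte markers 14 of 17 were lower in VDR KO without the hormone and 15 of 17 with it, and their part in the result was not tested. The calls come from edgeR's quasi-likelihood test with Benjamini-Hochberg adjustment over all genes tested, at an adjusted p below 0.05, and the p-values rest on how far these libraries differ within a group. The labels describe them as replicates on a 6-well plate and do not say whether they are separate cultures, so that spread may be technical. After the GC correction 45 members were higher and 0 lower without the hormone, beside 36.7% and 30% of all genes. With the hormone 46 were higher and 1, now CENPA, was lower, beside 41% and 30.4% of all genes. CDC25B was then not called in either comparison. The members' medians were 0.77 and 0.82, and those of all genes 0.06 and 0.10. The correction moved 13 of the untreated and 17 of the treated values by over 1.5 times. Without the hormone KIF20B went from 0.56 to 0.20, CDC20 from 0.30 to 0.60 and INCENP from 0.21 to 0.63. With the hormone SMC4 went from 0.59 to 0.25, ASPM from 0.87 to 0.41 and NCAPD3 from 0.50 to 0.80, and CCNA2, at 0.09, was no longer called (adjusted p = 0.384). When only library size was used for scaling, the median of all genes was 0.13 in each comparison of the genotypes. Then 49 and 45 members were higher, beside 42.4% and 43.6% of all genes.

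**Figure D2:**
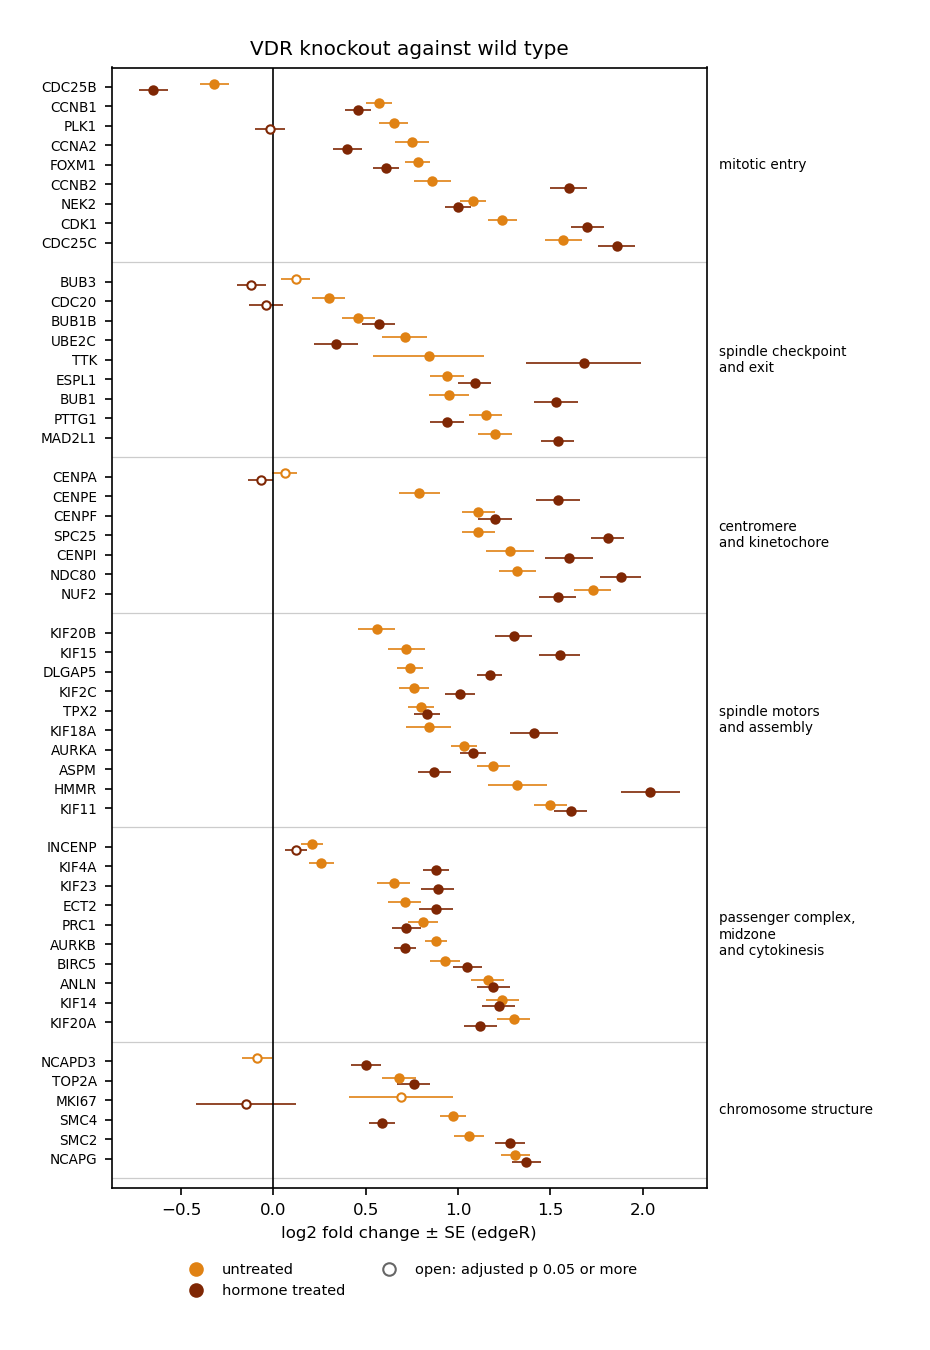
Log2 fold change of each member in VDR KO against wild type cells, untreated (orange) and hormone treated (brown), with bars for ± SE (n = 3 per group) and open points for adjusted p of 0.05 or more. Points lie right of 0 for 49 of 51 members untreated and for 45 of 51 treated, and CDC25B lies left of 0 in both.

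The hormone's effect in wild type cells was smaller and ran both ways. After 8 h, 3 members were higher, PLK1, CDC25B and ASPM, and 12 were lower, among them CCNB2, CDK1, KIF15, SPC25 and NCAPD3. Of all genes tested 11.5% were called higher and 13.0% lower, beside 5.88% and 23.5% of the members. The members' median log2 fold change was -0.05, with a range of -0.59 to 0.82, and 36 members were not called. Of these 15 calls 9 held in each fit that left out 1 of the 6 libraries. The other 6 were lost without at least 1 library, and their values are given with the genes. A fit of the wild type libraries alone called 2 members higher and 6 lower, beside 7.69% and 7.93% of all genes. It kept 6 of the 12 falls and 1 of the 3 rises. The called members differed in GC content, with a median of 40.2% for those that fell, 53.4% for those that rose and 44.2% for those not called. Of the keratinocyte markers 6 of 17 rose and 2 fell in the same comparison, and their part in the result was not tested. After the GC correction 3 members were higher and 11 lower, and the calls over all genes went from 1688 higher and 1914 lower to 1404 higher and 2419 lower. CDC25B (0.11, adjusted p = 0.316) and MAD2L1 (-0.26, adjusted p = 0.0668) lost their calls and SMC4 gained one (0.24, adjusted p = 0.0131).

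In VDR KO cells the hormone left 50 of the 51 members uncalled. KIF20B, a kinesin that acts in late mitosis, was called higher by a log2 fold change of 0.36 ± 0.09 (SE; adjusted p = 0.0497), and no member was called lower by edgeR's quasi-likelihood test. At an unadjusted p below 0.05 there were 10 members higher and 8 lower, which is 19.6% and 15.7% of them, beside 9.96% and 11.4% of all genes. At the adjusted threshold 0.913% of all genes were called higher and 1.64% lower. The KIF20B call was lost in each of the 6 fits that left out 1 library, with adjusted p from 0.0758 to 0.236. The members' log2 fold changes ran from -0.37 to 0.38, with a median of 0.03. The number of calls in this comparison varied with the fit. DESeq2 called 3 members higher and 5 lower, beside 3.37% and 4.11% of all genes, and edgeR on only the VDR KO libraries called 9 higher and 6 lower, beside 5.79% and 6.55%. After the GC correction 1 member was higher and 4 were lower, beside 1.59% and 2.18% of all genes. The 4 were BUB3, PTTG1 (-0.32, adjusted p = 0.0418), KIF20A (-0.34, adjusted p = 0.037) and SMC4 (-0.24, adjusted p = 0.0456). Of the keratinocyte markers 4 of 17 fell in this comparison, and their part in the result was not tested. With library size alone 0 members were higher and 2 lower, and the calls over all genes went from 134 higher and 240 lower to 98 and 392.

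The difference of the hormone responses, VDR KO minus wild type, was itself tested. It uses the same libraries as the comparisons above and is no separate support for them. It was called positive for 13 members and negative for 5, where 13.8% of all genes were called positive and 12.5% negative. The median over the members was 0.09 and that over all genes -0.01. Of the 12 members that fell in wild type cells, 11 had a log2 fold change above 0 in VDR KO cells and 1, CDK1, had one just below 0, and the 3 that rose in wild type cells had one below 0. Opposite signs were also common over all genes, at 78.1% of the 1914 that fell and 82.4% of the 1688 that rose in wild type cells. Of the keratinocyte markers 8 of 17 had a negative and 2 a positive difference, and their part in the result was not tested. Of the 18 calls of a difference, 13 held in each of the 12 fits that left out a library. Spearman's rho of this difference with GC content was -0.36 across all genes and -0.47 across the members. After the GC correction 12 differences were positive and 5 negative, beside 16.3% and 9.88% of all genes. The members' median was then -0.01 and that of all genes 0.04. The differences of CDK1 (0.28, adjusted p = 0.0538), CDC25B (-0.09, adjusted p = 0.584) and CDC20 (-0.15, adjusted p = 0.283) were no longer called. NUF2 (-0.31, adjusted p = 0.048) and ASPM (-0.48, adjusted p = 0.00205) gained a call.

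**Figure D3:**
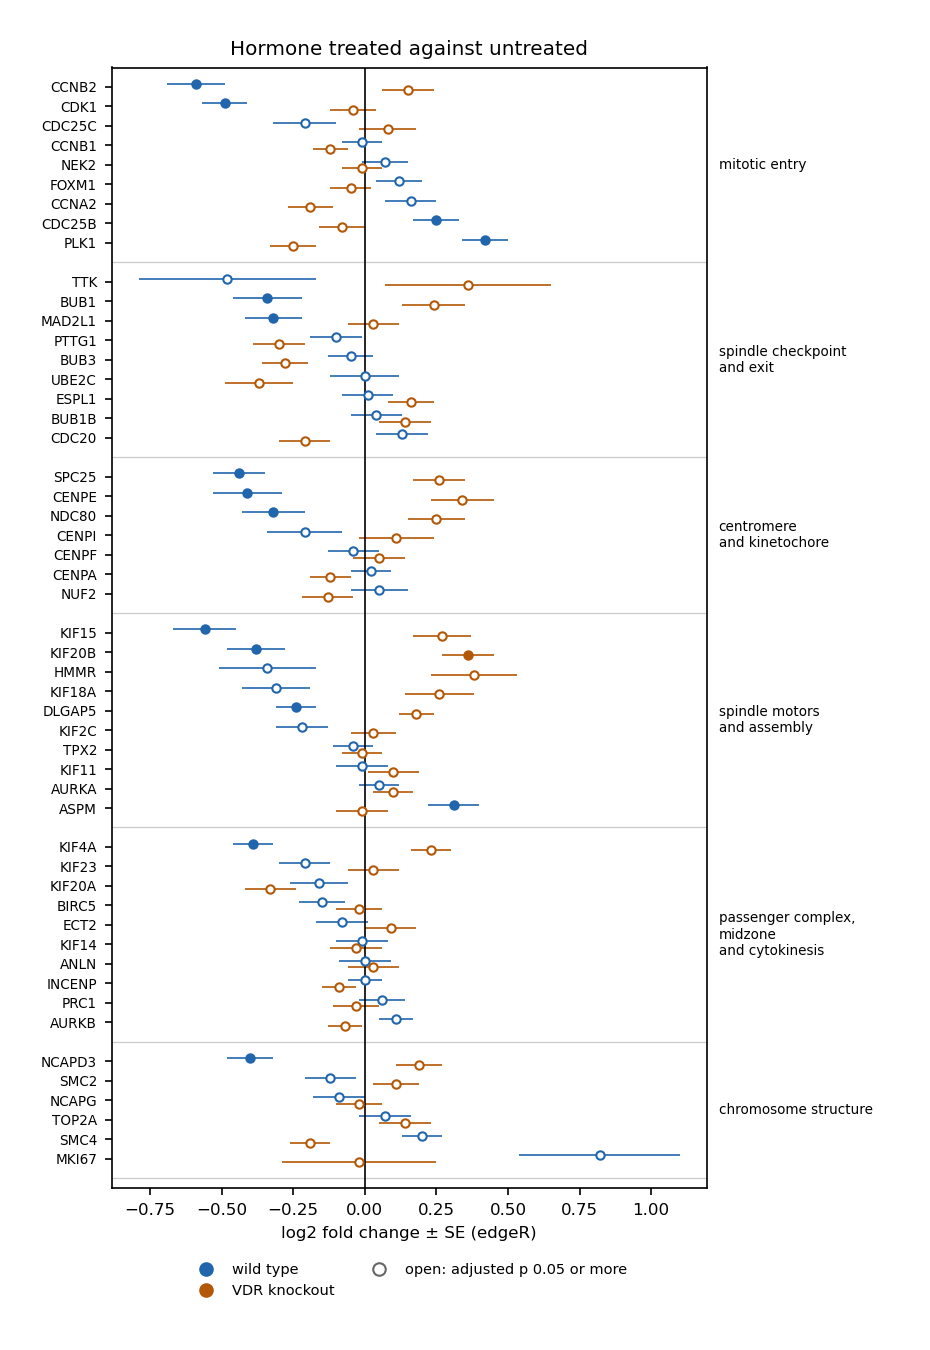
Log2 fold change of each member after the hormone, in wild type (blue) and VDR KO cells (brown), with bars for ± SE (n = 3 per group) and open points for adjusted p of 0.05 or more. The 15 filled blue points mark the members called in wild type cells, 12 left and 3 right of 0, and the single filled brown point is KIF20B.

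Among the 9 genes of mitotic entry, 8 were higher in untreated VDR KO than in wild type cells and 7 in treated cells, and 2 rose and 2 fell with the hormone in wild type cells. CDK1 (ENSG00000170312, chr10:60778331-60794852 on GRCh38), the kinase that starts mitosis, stood at 84.6, 87.5 and 101.9 CPM in untreated and 65.4, 62.0 and 67.2 CPM in treated wild type libraries. In VDR KO libraries it stood at 201.3, 223.0 and 224.9 CPM untreated and 209.4, 196.6 and 225.6 CPM treated. The treated wild type libraries lay below all untreated ones and all VDR KO libraries lay above, while those with and without the hormone overlapped. CDK1 was 2.37-fold higher in VDR KO without and 3.25-fold with the hormone, and its log2 change with the hormone was -0.49 ± 0.08 (SE) in wild type (adjusted p = 0.000687) and -0.04 ± 0.08 in VDR KO cells. CCNB2 (chr15:59105078-59125045), cyclin B2, a partner of CDK1, stood at 86.7, 76.3 and 104.3 CPM untreated and 58.0, 61.5 and 57.7 CPM treated in wild type. In VDR KO it stood at 153.8, 160.8 and 171.1 CPM untreated and 176.5, 195.0 and 166.3 CPM treated. It showed the largest fall of the 51 members with the hormone in wild type cells, -0.59 ± 0.10 (adjusted p = 0.000553), with no overlap, and its difference of responses was 0.74 ± 0.14 (adjusted p = 0.00114).

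The other B-type cyclin behaved otherwise. CCNB1, cyclin B1, stood at 134.4, 137.0 and 126.4 CPM untreated and 130.7, 134.8 and 129.2 CPM treated in wild type, and at 202.8, 189.0 and 200.4 CPM and 175.8, 185.9 and 182.9 CPM in VDR KO. It was 1.49-fold higher in VDR KO untreated and 1.38-fold treated, and its log2 change with the hormone was -0.01 ± 0.07 in wild type (adjusted p = 0.916) and -0.12 ± 0.06 in VDR KO cells (adjusted p = 0.29). PLK1 (chr16:23677656-23690367), polo-like kinase 1, which acts on CDC25 and on spindle formation, stood at 110.0, 103.1 and 89.2 CPM untreated and 132.8, 132.6 and 140.4 CPM treated in wild type. In VDR KO it stood at 164.5, 158.7 and 151.8 CPM untreated and 128.7, 131.7 and 139.9 CPM treated. Every treated wild type library was above every untreated one, while in VDR KO every treated library was below every untreated one. PLK1 rose by 0.42 ± 0.08 in wild type (adjusted p = 0.00115), its change in VDR KO was -0.25 ± 0.08 (adjusted p = 0.087), and the difference was -0.67 ± 0.11 (adjusted p = 0.000541). It was 1.57-fold higher in VDR KO than in wild type without the hormone, and with it the log2 difference was -0.02 ± 0.08 (adjusted p = 0.825). With the GC correction the treated PLK1 difference was 0.19 and was called (adjusted p = 0.0178).

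The 2 CDC25 phosphatases among the members differed in direction between the genotypes before the GC correction. CDC25C stood at 11.4, 13.3 and 14.2 CPM untreated and 10.3, 11.9 and 11.3 CPM treated in wild type, and at 38.8, 37.7 and 38.9 CPM and 41.4, 44.2 and 36.4 CPM in VDR KO. It was 2.96-fold higher in VDR KO without and 3.63-fold with the hormone. CDC25B stood at 75.5, 81.6 and 75.8 CPM untreated and 95.9, 87.8 and 93.6 CPM treated in wild type, and at 58.5, 62.7 and 65.9 CPM and 62.6, 61.4 and 53.2 CPM in VDR KO. All VDR KO libraries were below all wild type ones, by -0.32 ± 0.08 untreated (adjusted p = 0.00177) and -0.65 ± 0.08 treated (adjusted p = 1.01e-06). CDC25B has a GC content of 59.0%, near the top of the members' range, and after the GC correction these values were 0.08 (adjusted p = 0.386) and -0.01 (adjusted p = 0.887). Its rise with the hormone in wild type, 0.25 ± 0.08 (adjusted p = 0.0268), was lost without untreated replicate 1 (adjusted p = 0.0587), treated replicate 1 (0.103) or treated replicate 3 (0.072). FOXM1, a transcription factor that activates many genes of this kind, stood at 43.0, 46.8 and 48.8 CPM untreated and 52.6, 49.5 and 48.4 CPM treated in wild type, and at 76.9, 83.5 and 77.2 CPM and 78.7, 77.7 and 72.8 CPM in VDR KO. It was 1.71-fold and 1.52-fold higher in VDR KO, and its change with the hormone was not called in either genotype (0.12 ± 0.08 and -0.05 ± 0.07). CCNA2, cyclin A2, was 1.69-fold higher in VDR KO untreated and 1.32-fold treated, and NEK2, a kinase of centrosome separation, 2.11-fold and 2.00-fold.

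**Figure D4:**
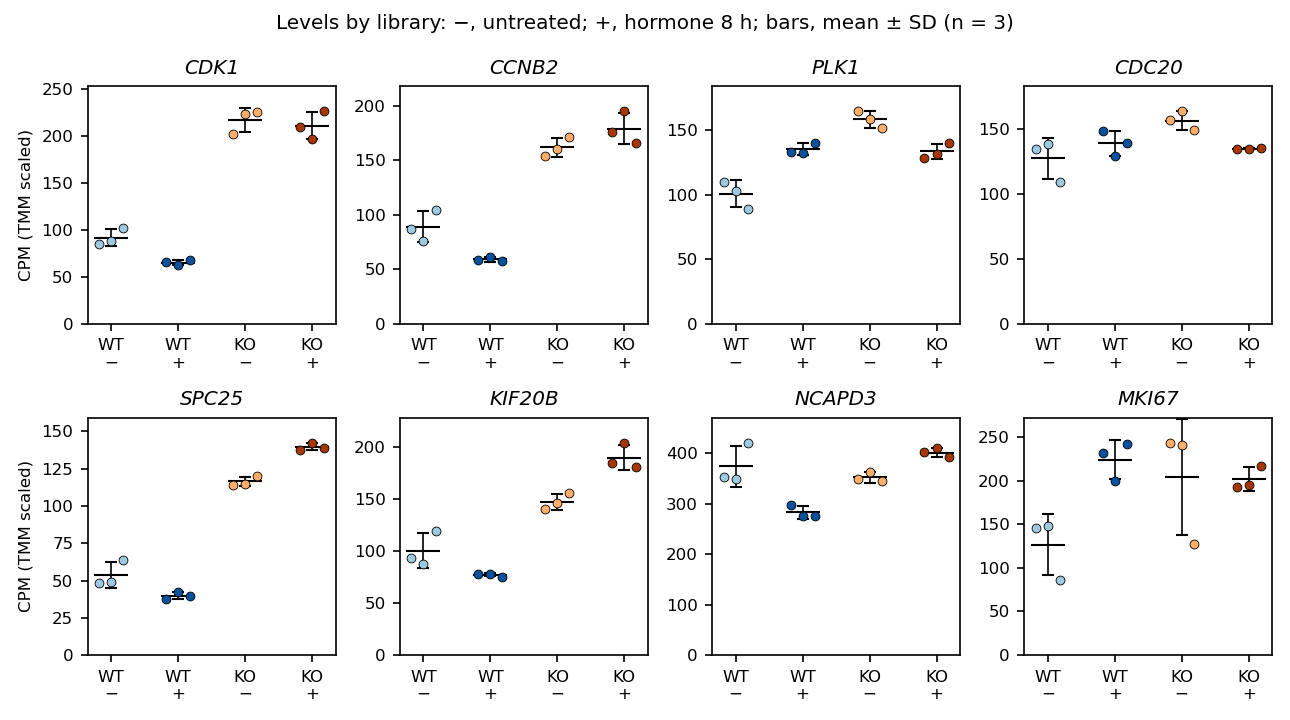
CPM of 8 members in each library (points), with the mean ± SD of each group (n = 3) and axes that start at 0. CDK1, CCNB2, SPC25 and KIF20B are lower in treated than in untreated wild type libraries and higher in all VDR KO libraries, PLK1 goes up in wild type with the hormone, and MKI67 has 1 low library in each untreated group.

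Among the 9 genes of the spindle checkpoint and of mitotic exit, 8 were higher in untreated and 7 in treated VDR KO cells, and 2, BUB1 and MAD2L1, fell with the hormone in wild type cells. BUB1, a checkpoint kinase at the kinetochore, stood at 45.2, 46.0 and 66.9 CPM untreated and 43.6, 40.5 and 41.2 CPM treated in wild type, and at 99.9, 103.3 and 101.9 CPM and 125.6, 123.6 and 112.3 CPM in VDR KO. Untreated replicate 3 was far above the other wild type libraries. The hormone's effect in wild type, -0.34 ± 0.12 (adjusted p = 0.0467), was -0.12 without that library (adjusted p = 0.246), and the call was also lost without treated replicate 1 (adjusted p = 0.0798), 2 (0.132) or 3 (0.133). The difference of responses, 0.58 ± 0.16 (adjusted p = 0.015), held in all 12 such fits. MAD2L1, which inhibits CDC20 until kinetochores are attached, stood at 17.1, 16.7 and 16.6 CPM untreated and 14.0, 14.7 and 11.9 CPM treated in wild type, and at 36.5, 39.0 and 40.2 CPM and 40.5, 37.4 and 40.2 CPM in VDR KO. It was 2.29-fold and 2.91-fold higher in VDR KO. Its fall of -0.32 ± 0.10 with the hormone (adjusted p = 0.0245) was -0.29 without untreated replicate 1 (adjusted p = 0.0671) and -0.22 without treated replicate 3 (adjusted p = 0.153).

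CDC20 (chr1:43358955-43363203), the activator of the anaphase-promoting complex, stood at 134.9, 138.8 and 109.4 CPM untreated and 149.0, 129.7 and 139.2 CPM treated in wild type, and at 157.3, 163.9 and 149.2 CPM and 135.1, 134.5 and 135.7 CPM in VDR KO. The untreated VDR KO libraries were above all untreated wild type ones, by 0.30 ± 0.09 (adjusted p = 0.00549), while the treated groups overlapped, at -0.04 ± 0.09 (adjusted p = 0.653). After the GC correction the treated difference was 0.45 (adjusted p = 9.17e-06), and the transcript's GC content is 57.4%. PTTG1, securin, which is degraded at anaphase, stood at 36.6, 30.3 and 30.8 CPM untreated and 28.5, 32.1 and 30.6 CPM treated in wild type, and at 77.0, 65.8 and 73.4 CPM and 61.2, 58.0 and 56.2 CPM in VDR KO. It was 2.22-fold and 1.92-fold higher in VDR KO. ESPL1, the protease separase that securin holds, was 1.91-fold and 2.12-fold higher. BUB1B and UBE2C, the BubR1 checkpoint protein and an E2 enzyme of the anaphase-promoting complex, were 1.38-fold and 1.64-fold higher untreated and 1.49-fold and 1.27-fold treated. The treated UBE2C call (adjusted p = 0.0147) was lost without wild type replicate 1 (0.0545), wild type replicate 2 (0.0514) or VDR KO replicate 3 (0.0664). TTK, the checkpoint kinase MPS1, was spread widely, with 42.4, 45.8 and 81.8 CPM in untreated VDR KO libraries. Its untreated difference of 0.84 ± 0.30 (adjusted p = 0.0319) was lost without wild type replicate 2 (adjusted p = 0.108), wild type replicate 3 (0.0699) or VDR KO replicate 3 (0.47, adjusted p = 0.0789), and also after the GC correction (0.57, adjusted p = 0.122). BUB3, a checkpoint protein, was not called in any comparison, with 0.12 ± 0.08 untreated and -0.12 ± 0.08 treated between the genotypes. With the hormone in VDR KO cells BUB3 was at -0.28 ± 0.08 (adjusted p = 0.0681) and, after the GC correction, at -0.29 with a call (adjusted p = 0.0461).

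Among the 7 genes of the centromere and kinetochore, 6 were higher in VDR KO under either treatment, with medians of 1.11 untreated and 1.54 treated, and 3 fell with the hormone in wild type cells. NUF2 and NDC80 belong with SPC25 to the NDC80 complex, which binds microtubule ends. NUF2 (chr1:163266576-163355764) stood at 53.4, 43.3 and 57.8 CPM untreated and 53.0, 51 and 56.4 CPM treated in wild type, and at 184.7, 153.8 and 174.6 CPM and 160.6, 158.1 and 149.3 CPM in VDR KO. Its 3.32-fold difference without the hormone was the largest among the 51 members in untreated cells (adjusted p = 1.79e-10), and the hormone's effect was not called in either genotype. NDC80 stood at 31.0, 29.2 and 40.7 CPM untreated and 26.7, 28.7 and 25.7 CPM treated in wild type, and at 80.9, 81.4 and 88.9 CPM and 100.7, 105.3 and 93.1 CPM in VDR KO. SPC25 (chr2:168834132-168913371) stood at 48.5, 49.2 and 63.9 CPM untreated and 37.5, 42.4 and 39.4 CPM treated in wild type, and at 114.3, 115.0 and 120.0 CPM and 137.8, 142.3 and 139.1 CPM in VDR KO. For SPC25 the treated libraries lay below the untreated ones in wild type and above them in VDR KO. Its log2 change was -0.44 ± 0.09 in wild type (adjusted p = 0.00321) and 0.26 ± 0.09 in VDR KO (adjusted p = 0.104), and the difference was 0.70 ± 0.13 (adjusted p = 0.00109). With the hormone SPC25 was 3.51-fold and NDC80 3.69-fold higher in VDR KO.

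NDC80 and CENPE resembled SPC25 in their values, but the calls of their falls in wild type cells were less stable. Each was lost in 4 of the 6 fits that left out 1 library. CENPE, a kinesin that moves chromosomes to the spindle equator, stood at 31.0, 33.2 and 44.9 CPM untreated and 27.4, 27.4 and 27.2 CPM treated in wild type, and at 55.7, 66.7 and 65.6 CPM and 80.5, 84.6 and 73.5 CPM in VDR KO. Its fall of -0.41 ± 0.12 (adjusted p = 0.0189) was -0.23 without untreated replicate 3 (adjusted p = 0.0788) and was not called without treated replicate 1 (0.0561), 2 (0.0546) or 3 (0.0663). NDC80's fall of -0.32 ± 0.11 (adjusted p = 0.0416) was -0.15 without untreated replicate 3 (adjusted p = 0.208) and was not called without treated replicate 1 (0.11), 2 (0.0554) or 3 (0.151). The differences of responses of CENPE (0.76 ± 0.16) and NDC80 (0.57 ± 0.15) held in all 12 fits. CENPF and CENPI, proteins of the outer and inner kinetochore, were 2.16-fold and 2.43-fold higher in untreated VDR KO cells. CENPA, the centromeric histone, was between 90.6 and 104.1 CPM in all 12 libraries and was not called in any comparison. Its log2 difference between the genotypes was 0.06 ± 0.07 untreated and -0.07 ± 0.07 treated. With the GC correction the treated CENPA difference was -0.17 and was called (adjusted p = 0.0296).

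All 10 genes of spindle motors and assembly were higher in VDR KO under either treatment, and 3 fell and 1 rose with the hormone in wild type cells. KIF11 (chr10:92593286-92655395), the motor that pushes spindle poles apart, stood at 87.2, 84.6 and 113.0 CPM untreated and 90.9, 98.8 and 93.3 CPM treated in wild type, and at 275.7, 256.8 and 271.4 CPM and 299.2, 290.5 and 274.3 CPM in VDR KO. It was 2.82-fold higher in VDR KO without and 3.05-fold with the hormone, and the hormone's effect was not called in either genotype. KIF15 (chr3:44761717-44873376), a motor that works beside KIF11, did respond. It stood at 31.6, 31.0 and 42.8 CPM untreated and 22.5, 24.2 and 25.0 CPM treated in wild type, and at 53.4, 59.6 and 60.5 CPM and 71.5, 68.7 and 69.5 CPM in VDR KO. All treated libraries lay below the untreated ones in wild type and above them in VDR KO. KIF15 changed by -0.56 ± 0.11 in wild type (adjusted p = 0.00166) and stood at 0.27 ± 0.10 in VDR KO (adjusted p = 0.134), and its difference of 0.83 ± 0.15 (adjusted p = 0.000878) was the largest called among the members.

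KIF20B (chr10:89701610-89774939) stood at 93.0, 87.8 and 119.4 CPM untreated and 77.6, 77.8 and 75.2 CPM treated in wild type, and at 140.2, 146.0 and 155.2 CPM and 184.2, 203.5 and 180.7 CPM in VDR KO. It fell in wild type cells by -0.38 ± 0.10 (adjusted p = 0.00917), and its difference of responses was 0.75 ± 0.14 (adjusted p = 0.00102). Its transcript has the lowest GC content of the members, 34.2%, and after the GC correction both calls held. DLGAP5, a spindle microtubule protein, stood at 94.6, 88.9 and 95.9 CPM untreated and 78.8, 78.0 and 79.5 CPM treated in wild type, and at 152.3, 150.8 and 164.8 CPM and 174.0, 181.7 and 174.8 CPM in VDR KO. Its change in wild type was small but larger than the spread, -0.24 ± 0.07 (adjusted p = 0.0142). AURKA, the Aurora A kinase of spindle poles, stood at 160.3, 171.4 and 183.4 CPM untreated and 180.8, 177.3 and 176.5 CPM treated in wild type, and at 350.7, 363.4 and 341.0 CPM and 377.5, 356.5 and 395.4 CPM in VDR KO. AURKA was 2.05-fold and 2.11-fold higher in VDR KO, its activator TPX2 1.74-fold and 1.78-fold, and the hormone's effect on both was not called. ASPM, a spindle pole protein, rose by 0.31 ± 0.09 in wild type cells (adjusted p = 0.0269), from 44.5, 45.5 and 58.1 to 62.4, 58.0 and 62.9 CPM. The groups overlapped, and the call was lost without untreated replicate 1 (adjusted p = 0.0842) or 2 (0.0847) or treated replicate 1 (0.0855) or 3 (0.0792). HMMR, KIF18A and KIF2C were 2.49-fold, 1.79-fold and 1.69-fold higher in untreated VDR KO cells, and HMMR, a spindle assembly factor, had the largest difference of the 51 members in treated cells, 4.10-fold.

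Among the 10 genes of the chromosomal passenger complex, the spindle midzone and cytokinesis, all 10 were higher in untreated and 9 in treated VDR KO cells, and 1 fell with the hormone in wild type cells. That gene was KIF4A (chrX:70290090-70420832), a chromosome- and midzone-bound kinesin. It stood at 108.3, 101.6 and 123.5 CPM untreated and 88.6, 82.9 and 82.2 CPM treated in wild type, and at 129.2, 134.2 and 135.3 CPM and 156.5, 156.1 and 155.6 CPM in VDR KO. The hormone groups did not overlap in either genotype, with a log2 change of -0.39 ± 0.07 in wild type (adjusted p = 0.00139) and 0.23 ± 0.07 in VDR KO (adjusted p = 0.0888). KIF4A is uncertain because its near-identical copy KIF4B had 49.5 to 66.6% as many counts in the same libraries, so reads may be split between them. KIF20A, a midzone kinesin, stood at 38.1, 33.7 and 31.7 CPM untreated and 30.9, 34.7 and 27.2 CPM treated in wild type, and at 83.0, 85.0 and 86.3 CPM and 71.0, 62.7 and 67.8 CPM in VDR KO. It was 2.46-fold and 2.17-fold higher in VDR KO.

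KIF14, a kinesin of the cytokinetic midbody, stood at 60.9, 65.5 and 76.8 CPM untreated and 73.0, 59.9 and 68.3 CPM treated in wild type, and at 157.1, 156.2 and 166.2 CPM and 160.0, 160.1 and 150.1 CPM in VDR KO. ANLN, the scaffold anillin of the contractile ring, stood at 143.9, 145.2 and 185.6 CPM untreated and 164.0, 147.0 and 163.8 CPM treated in wild type, and at 359.4, 346.1 and 353.6 CPM and 367.7, 357.3 and 355.9 CPM in VDR KO. Both were separated by genotype with no overlap, 2.36-fold and 2.23-fold untreated, and neither was called for the hormone. Of the passenger complex, AURKB, the Aurora B kinase, was 1.85-fold and BIRC5, survivin, 1.90-fold higher in untreated VDR KO cells. INCENP, its scaffold, differed by only 0.21 ± 0.06 untreated (adjusted p = 0.00774) and 0.12 ± 0.06 treated (adjusted p = 0.104). INCENP has the highest GC content of the members, 59.6%, and after the GC correction its treated difference was 0.80 (adjusted p = 1.33e-08). PRC1, KIF23 and ECT2, which bundle midzone microtubules or place the cleavage furrow, were 1.76-fold, 1.57-fold and 1.64-fold higher in untreated VDR KO cells.

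Among the 6 genes of chromosome structure, 4 were higher in untreated and 5 in treated VDR KO cells. NCAPG, SMC2 and SMC4 are subunits of condensin complexes, which compact mitotic chromosomes. NCAPG stood at 37.6, 43.1 and 47.0 CPM untreated and 41.2, 37.5 and 41.7 CPM treated in wild type, and at 109.5, 98.2 and 109.0 CPM and 104.5, 105.6 and 101.8 CPM in VDR KO. SMC2 stood at 69.2, 71.7 and 87.9 CPM untreated and 72.5, 65.9 and 72.8 CPM treated in wild type, and at 157.0, 160.1 and 161.4 CPM and 166.6, 180.1 and 168.1 CPM in VDR KO. Both were separated by genotype, 2.48-fold and 2.09-fold untreated. SMC4 stood at 60.2, 60.3 and 61.4 CPM untreated and 73.7, 63.6 and 71.0 CPM treated in wild type, and at 121.3, 112.9 and 122.2 CPM and 105.8, 105.2 and 102.3 CPM in VDR KO. Its values with the hormone lay in the opposite order to those of SPC25 and KIF15, at 0.20 ± 0.07 in wild type (adjusted p = 0.0524) and -0.19 ± 0.07 in VDR KO (adjusted p = 0.132), and the difference was -0.38 ± 0.10 (adjusted p = 0.00928).

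NCAPD3 (chr11:134150119-134225454), a subunit of condensin II, followed another pattern. It stood at 353.9, 348.4 and 420.8 CPM untreated and 298.4, 276.1 and 275.8 CPM treated in wild type, and at 348.7, 363.9 and 344.4 CPM and 402.5, 409.9 and 392.9 CPM in VDR KO. The untreated genotypes overlapped, at -0.09 ± 0.08 (adjusted p = 0.332), and the treated ones did not, at 0.50 ± 0.08 (adjusted p = 1.87e-05). It fell by 0.40 on the log2 scale with the hormone in wild type cells (adjusted p = 0.0018), and its GC content of 54.6% is the highest among the 12 members that fell. TOP2A, a topoisomerase that untangles chromosomes, was 1.61-fold and 1.69-fold higher in VDR KO. MKI67 (chr10:128096659-128126385), the proliferation marker Ki-67 that coats mitotic chromosomes, was not called in any comparison. It stood at 146.2, 148.4 and 85.8 CPM untreated and 231.5, 199.6 and 241.7 CPM treated in wild type, and at 243.4, 241.6 and 127.0 CPM and 193.1, 194.6 and 217.5 CPM in VDR KO. Replicate 3 was the low one in both untreated groups. Its log2 change with the hormone in wild type was 0.82 ± 0.28 (adjusted p = 0.0616), with no overlap, and the untreated genotypes differed by 0.69 ± 0.28 (adjusted p = 0.0517), with overlap.

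**Figure D5:**
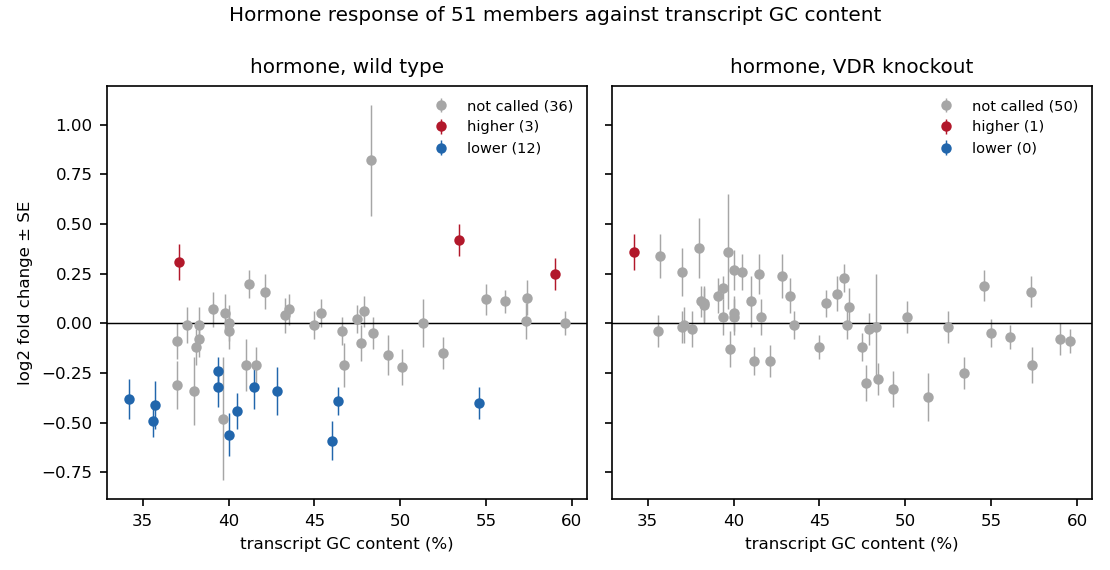
Log2 fold change with the hormone (± SE, n = 3 per group) of the 51 members against the GC content of their transcripts, in wild type (left) and VDR KO cells (right), coloured by call. Spearman's rho is 0.39 on the left and -0.48 on the right, given as a description, and the 12 members that fell in wild type cells lie mostly at low GC content.

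Per kilobase of exon, TPX2 had the highest level of the members in untreated wild type cells, 95.6 ± 8.08 CPM per kb (SD, n = 3), followed by UBE2C at 76.4 ± 16. CENPE, at 3.85 ± 0.792, and MAD2L1, at 2.93 ± 0.0392, were at the bottom of the order. The ranges of mean ± SD of TPX2 and UBE2C overlapped, and their order was not tested. Over the 12 libraries the 5 genes whose log2 CPM followed CDK1 most closely by Pearson's r were UBE2T (0.994), WIBG, HIST1H4A, BIK and CISD1 (0.993 each), and none of them is a member. These values are a description, since the 12 libraries fall into 2 well separated genotypes.

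A wider list of 104 other genes of mitosis, of which 103 were tested, was examined beside the members. In untreated VDR KO cells 73 of the 103 were higher and 11 lower, and in treated cells 78 were higher and 12 lower, where 35.5% and 34.2% of all genes untreated and 38.4% and 37.4% treated were called higher and lower. PBK, a mitotic kinase, was 3.28-fold higher untreated and 4.45-fold treated. SKA2 and SKA1, of a kinetochore complex that tracks microtubule ends, were 3.29-fold and 3.17-fold higher in treated cells, and SKA3 2.29-fold in untreated cells. On the lower side, MAD1L1, which recruits MAD2 to kinetochores, was 3.02-fold lower untreated and 1.88-fold treated, and ANAPC2, of the anaphase-promoting complex, and CENPT, a kinetochore anchor, were 2.01-fold and 2.04-fold lower treated. NDE1 and CCNF, cyclin F, were 1.60-fold and 1.56-fold lower untreated. Values after the GC correction are not given for this list or for the transcriptional regulators described next. With the hormone in wild type cells 9 were higher and 27 lower, beside 11.5% and 13.0% of all genes. CENPT was 1.48-fold, WEE1, the kinase that inhibits CDK1, 1.40-fold and PLK4, the kinase of centriole copying, 1.33-fold higher. SGOL2, MAD1L1 and NDE1 were 1.39-fold, 1.42-fold and 1.27-fold lower. With the hormone in VDR KO cells 1 was higher and 4 lower, beside 0.913% and 1.64% of all genes. CCNF was 1.21-fold higher (adjusted p = 0.044 by edgeR's quasi-likelihood test). CENPT, ZWINT and RAD21 were lower by 1.37-fold, 1.32-fold and 1.21-fold (adjusted p = 0.0126, 0.0403 and 0.0448). Whether these calls held in the fits that left out 1 library is not given here. The difference of responses was positive for 34 and negative for 13, beside 13.8% and 12.5% of all genes, led by SGOL2 (0.70 ± 0.09), CCNF (0.60 ± 0.09) and CKAP2L (0.88 ± 0.15), and by CENPT (-1.01 ± 0.11), WEE1 (-0.61 ± 0.10) and RAD21 (-0.50 ± 0.10).

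Of 29 transcriptional regulators of such genes, counted under 30 gene IDs, 13 IDs were higher and 5 lower in untreated VDR KO cells, and 15 were higher and 6 lower in treated cells. The shares of all genes called higher, 35.5% and 38.4%, are not far from those of the regulators. The shares of all genes called lower, 34.2% and 37.4%, are above those of the regulators. The counts are a description of the list and were not tested. The E2F family factors E2F2 and E2F8 showed the largest rises, with log2 fold changes of 1.82 and 1.77 untreated and 1.46 and 1.98 treated. E2F8 stood at 22.2, 21.4 and 28.8 CPM in untreated wild type and at 82.3, 81.8 and 83.3 CPM in untreated VDR KO libraries, with no overlap. Of the 5 subunits of the MuvB core, 2 were called higher untreated, LIN52 (1.01) and LIN54 (0.87), and 4 treated, LIN52 (1.36), LIN54 (1.04), LIN9 (0.76) and RBBP4 (0.22). LIN9 was at -0.09 untreated (adjusted p = 0.431), and LIN37 was not called under either treatment (-0.24 and -0.10). MYBL2, which joins MuvB to activate such genes, was at 0.87 in untreated cells. Others called higher untreated included NFYC (0.59), an NF-Y subunit, TFDP2 (0.86), E2F3 (0.49), CDKN1B (0.63), CDKN2A (0.46), CCNE2 (0.60) and 1 of the 2 IDs of RBL1 (0.94). In treated cells they included NFYC (0.93), TFDP2 (1.39), E2F3 (0.69), RB1 (0.79), CDKN2A (0.37), CCNE2 (0.45) and both IDs of RBL1 (0.39 and 1.19). The list holds activators and repressors, and both kinds were among those higher.

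Lower in VDR KO were CCND1, cyclin D1, at -1.42 untreated and -1.43 treated, E2F4, a repressive E2F, at -0.72 and -1.57, CDKN1A, the CDK inhibitor p21, at -0.45 and -0.64, and TFDP1 at -0.50 and -0.40. DYRK1A, a kinase that helps to assemble DREAM, was at -0.17 untreated, and E2F1 and RBL2 were at -0.53 and -0.43 treated. With the hormone in wild type cells 2 of the 30 IDs were higher and 5 lower, beside 11.5% and 13.0% of all genes. MYBL2 (0.43) and E2F1 (0.38) rose, and LIN9 (-0.48), CDKN1A (-0.43), TFDP2 (-0.42) and RB1 (-0.35) were among those that fell. In VDR KO cells CDKN1A alone among them was called, at -0.61, where 0.913% of all genes were called higher and 1.64% lower. CDKN1A was thus lower with the hormone in both genotypes, from 136.8, 135.6 and 126.3 to 104.1, 99.3 and 93.7 CPM in wild type and from 112.1, 81.7 and 97.3 to 69.1, 61.8 and 59.8 CPM in VDR KO. The difference of responses was called positive for 5 IDs and negative for 4, beside 13.8% and 12.5% of all genes. Shares so near those of all genes make these counts a description of the list. Positive ones included LIN9 (0.86), RB1 (0.61), TFDP2 (0.54) and NFYC (0.34), and the negative ones were MYBL2 (-0.71), E2F1 (-0.49), CDKN1B (-0.48) and RBL2 (-0.47).

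The authors' deposited tables of gene ontology enrichment name such genes too. In the authors' deposited table for genes higher in untreated VDR KO cells, 15 terms with names of mitosis, the cell cycle, the spindle, the centromere or cytokinesis were listed. Some of the 15 were terms of meiosis. Together they held 43 of the 51 members. The members were chosen as genes of mitosis and the terms rest on the same libraries, so this count is no separate support. In the authors' deposited table the term mitotic nuclear division had 105 listed genes, 33 of them members (authors' adjusted p = 4.64e-05), and G2/M transition of mitotic cell cycle also had 105, 14 of them members (authors' adjusted p = 9.98e-06). MKI67 was among the members those terms list, whereas it was not called here. For treated cells the authors' deposited table gave chromosome segregation with 165 listed genes, 31 of them members (authors' adjusted p = 2.37e-07). For genes lower with the hormone in wild type cells, the authors' deposited table gave cell cycle G2/M phase transition with 34 listed genes (authors' adjusted p = 0.0443), of which CDK1 and CCNB2 are the members. For genes lower with the hormone in VDR KO cells, the authors' deposited table also held 2 such terms. Negative regulation of mitotic cell cycle had 18 listed genes, with PTTG1 as the only member (authors' adjusted p = 0.0232). Negative regulation of mitotic cell cycle phase transition had 14, with 0 members (authors' adjusted p = 0.04).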

How the data were processed

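RNA of HaCaT cells was sequenced in 12 libraries, 3 in each of 4 groups taken from the labels. The authors deposited raw read counts per gene, and a table of CPM that equals each count over its column total to within 0.005. The authors' deposited enrichment tables hold a p-value, an adjusted p-value and, as other values, the number of listed genes per term (Count). Their direction was settled by matching listed genes to fold change signs. The submitters' processing notes name BWA 0.5.9 and the mouse build mm9. Since the IDs are those of human genes, the build and annotation behind the counts, the counting tool and its use of strand count as not given in the sources used here. Genes that overlap others can therefore share reads.

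The test was edgeR 4.0.16 (R 4.3.3) with filterByExpr, which set aside 1595 genes, TMM factors of 0.95 to 1.057, and a robust quasi-likelihood fit of the 12 libraries together (common dispersion 0.0117), with F tests adjusted by Benjamini-Hochberg within each of 5 comparisons. SE is the size of the log2 fold change over the square root of F. The test was tried on simulated counts. The alternatives were library size alone, DESeq2 size factors, 2 other filters, DESeq2 1.42.0, the compared groups only, a replicate block, leaving out each library and, added after seeing the data, a GC offset. Gene positions and GC content are from GENCODE v29 (GRCh38), which held 15524 of 16271 IDs, and promoters are from RefSeq. Promoter stretches of mitotic entry genes were to be printed, but most lie over annotated exons, so others were taken after their values were seen.

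The members, the lists and the rule for named genes were chosen with earlier results of these data known. The rule gives values per library for the 2 called members of each role with the smallest adjusted p in each comparison, and for CDK1, CCNB1, CDC20, MKI67 and FOXM1. It also names the 3 other mitosis genes called with the smallest adjusted p in each direction and comparison, the called regulators (1 is not reported here), and the 5 genes most like CDK1. Values for CDC25B, ASPM and TTK were added after they were seen.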

Additional observations from a re-analysis of the deposited data

Results flagged for a closer look

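For 18 of the 51 members the response to the hormone differed between the genotypes by a test of the difference itself (edgeR's quasi-likelihood test of the interaction over all 12 libraries, n = 3 per group, adjusted by Benjamini-Hochberg). Of all genes tested 13.8% had a positive and 12.5% a negative difference called. Values are log2 responses in VDR KO minus wild type cells. The difference was positive for KIF15 (0.83), CENPE (0.76), KIF20B (0.75), CCNB2 (0.74), HMMR (0.72), SPC25 (0.70), KIF4A (0.63), NCAPD3 (0.59), BUB1 (0.58), NDC80 (0.57), KIF18A (0.56), CDK1 (0.45) and DLGAP5 (0.42). Of the 10 genes of spindle motors and assembly 5 were among these, and of the 7 centromere and kinetochore genes 3. The difference was negative for PLK1 (-0.67), SMC4 (-0.38), CCNA2 (-0.35), CDC20 (-0.34) and CDC25B (-0.33), of which PLK1, CCNA2 and CDC25B act in mitotic entry. After the GC correction the differences of CDK1 (0.28), CDC25B (-0.09) and CDC20 (-0.15) were no longer called, and those of NUF2 and ASPM were.

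Those of CCNA2, CDC25B, CDC20, KIF18A and HMMR were lost without 1 of several libraries: CCNA2 without 9 of the 12 (adjusted p from 0.0518 to 0.104), CDC25B without 7 (0.0512 to 0.104), CDC20 without 7 (0.0775 to 0.119), KIF18A without 5 (0.0567 to 0.0762) and HMMR without 7 (0.0527 to 0.08).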

How the results depend on the processing

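Under every alternative run, 43 to 49 members were higher in VDR KO than in wild type cells, with and without the hormone. The replicate numbers were not used to pair the samples in the main fit. Over 18 same-numbered pairs the correlation of deviations from the group means ran from -0.18 to 0.12, and 1 was over 0.1. With 3 libraries per group, this cannot show whether same-numbered libraries were handled together. With a replicate block, 3 members were higher and 10 lower with the hormone in wild type cells, 0 and 0 in VDR KO cells, 45 and 1 for the genotypes untreated, 44 and 1 treated, and 13 and 2 for the difference of responses.

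The calls for the hormone in VDR KO cells, 1 member higher and 0 lower, varied with the fit. Members higher were 0 with library size alone, 3 with DESeq2, 9 with the compared groups only and 0 to 0 without 1 library. Members lower were 2 with library size alone, 1 with no filter, 5 with DESeq2, 6 with the compared groups only and 4 with the GC offset. For the hormone in wild type cells 2 members were higher and 6 lower with the compared groups only, and 1 to 4 were higher and 8 to 15 lower without 1 library. Members lower in VDR KO were 2 in treated cells with the compared groups only and 0 in untreated cells with the GC offset, and the difference of responses was negative for 2 to 6 members without 1 library. The cause was not tested.

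Over all genes, the hormone in wild type cells gave 1092 higher and 1126 lower with the compared groups only, 1119 and 1273 without treated replicate 1 and 1010 and 1102 without treated replicate 3. In VDR KO cells it gave 408 and 498 with DESeq2, 833 and 942 with the compared groups only, 37 and 106 with the block, 234 and 320 with the GC offset, and 0 to 66 higher and 8 to 212 lower without 1 library.

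Directions turned for 9 printed values. CDC20 between the treated genotypes was 0.06 with library size alone, -0.11 to 0.01 without 1 library (0.01 without wild type replicate 1) and 0.45 with the GC offset. MKI67 with the hormone in VDR KO cells was 0.03 with the block and -0.27 to 0.13 without 1 library (above 0 without 4 of 6, at 0.13, 0.12, 0.01 and 0.01), and CDK1 was -0.09 to 0.01 (0.01 without treated replicate 2). CCNB1 with the hormone in wild type cells was -0.04 to 0.01 without 1 library (0.01 without untreated replicate 1 or 2 or treated replicate 3) and 0.03 with the GC offset. With the GC offset FOXM1 with the hormone in VDR KO cells was 0.02, and CDC25B between the untreated genotypes was 0.08. Between the treated genotypes PLK1 was 0.09 with library size alone, -0.06 to 0.00 without 1 library and 0.19 with the GC offset, and CENPA was 0.03 with library size alone. NCAPD3 between the untreated genotypes was 0.03 with library size alone, -0.14 to 0.00 without 1 library and 0.07 with the GC offset. Of these, only CDC25B (-0.32) had been called.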
